A study of Mus musculus with 12 samples.

Results

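Fgf4, the 4 FGF receptor genes Fgfr1 to Fgfr4 and the FGF carrier gene Fgfbp1 were followed across 12 expression arrays of mouse embryonic stem cells. They are 6 of the 18193 genes named on the array. Every probe set annotated to exactly 1 of these 6 symbols was taken, which gave 18 of the 45101 probe sets, and 14 of the 18 were bright enough to be tested. Fgf4 had 4 probe sets, Fgfr1 had 3, Fgfr2 had 3, Fgfr3 had 2, Fgfr4 had 5 and Fgfbp1 had 1. The cells were Tcf3-/- (knockout, KO) or Tcf3+/+ (wild type, WT), and each genotype was grown either with 50 ng/ml Wnt3a for 24 h or in control medium, with 3 arrays in each of the 4 groups. Wnt3a is a secreted protein that stabilises beta-catenin, and the labels' Tcf3 is the gene now called Tcf7l1, which encodes a DNA-binding partner of beta-catenin. All 4 groups were grown without feeder cells on gelatin, in medium with 15% serum and 1000 U/ml Lif, a cytokine that keeps stem cells undifferentiated. The labels name neither the cell lines nor the deleted part of the gene, and they leave unsaid whether a group's 3 arrays stand for separate cultures. The p-values therefore reflect only the spread among arrays, which may be technical.

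FGF ligands are secreted proteins that bind receptor tyrosine kinases on the cell surface together with heparan sulfate, a sugar chain of the cell coat, and switch on the ERK kinase pathway inside the cell. In the early mouse embryo and in embryonic stem cells Fgf4 is the main FGF that the pluripotent cells make, and its signal through ERK is needed for them to leave self-renewal and, in the embryo, for the inner cell mass to form primitive endoderm. Fgfr1 and Fgfr2 are the receptors through which that signal acts there. Fgfbp1 is a secreted carrier that frees FGFs from the heparan sulfate in which they are held.

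Of these 6 genes, Fgf4 was higher in KO than in WT cells, in both media and with each of its 3 tested probe sets. Fgfr1, Fgfr2 and Fgfbp1 were lower in KO cells in both media, although the Fgfr1 probe set 1425911_a_at did not pass the test in control medium. With the brightest probe sets Fgf4 was 1.71-fold higher in control medium, Fgfr2 was 2.23-fold lower, Fgfbp1 1.88-fold lower and Fgfr1 1.44-fold lower. The 2 probe sets of Fgfr3 and 2 of the 3 tested probe sets of Fgfr4 passed the test in neither medium when KO and WT cells were compared. Of the 14 tested probe sets, 4 were called higher (18% of all 28483 tested probe sets were) and 5 lower (18.2%) in KO cells in control medium. With Wnt3a 3 were called higher (10.8% of all) and 6 lower (13.2%). The differences between Wnt3a and control medium within a genotype lay between -0.43 and 0.33 on the log2 scale, and the difference in Wnt3a response between the genotypes was called for 0 of the 14 (3.58% of all).

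RefSeq start regions on assembly GRCm38.p6 were given for 5 of the 6 genes (not for Fgfr1), and the 250 bases before the start of transcription are printed for Fgf4, which was higher in KO cells, and for Fgfr2 and Fgfbp1, which had the largest falls. The Fgf4 region is chr7:144861136-144861385 on the plus strand, that of Fgfr2 is chr7:130266809-130267058 on the minus strand, and that of Fgfbp1 is chr5:43981800-43982049 on the minus strand. Each sequence runs 5′ to 3′ toward the gene, and capitals mark matches of the GC box GGGCGG, the motif bound by Sp1-type factors.
Fgf4: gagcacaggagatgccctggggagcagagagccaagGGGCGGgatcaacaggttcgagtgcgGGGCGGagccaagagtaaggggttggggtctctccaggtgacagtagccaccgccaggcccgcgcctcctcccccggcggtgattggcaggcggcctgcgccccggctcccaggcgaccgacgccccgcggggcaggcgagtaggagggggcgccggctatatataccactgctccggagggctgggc
Fgfr2: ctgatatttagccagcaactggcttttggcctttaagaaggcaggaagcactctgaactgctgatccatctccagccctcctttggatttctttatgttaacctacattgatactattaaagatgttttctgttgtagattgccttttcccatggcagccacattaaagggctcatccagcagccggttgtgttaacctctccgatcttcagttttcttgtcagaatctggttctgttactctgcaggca
Fgfbp1: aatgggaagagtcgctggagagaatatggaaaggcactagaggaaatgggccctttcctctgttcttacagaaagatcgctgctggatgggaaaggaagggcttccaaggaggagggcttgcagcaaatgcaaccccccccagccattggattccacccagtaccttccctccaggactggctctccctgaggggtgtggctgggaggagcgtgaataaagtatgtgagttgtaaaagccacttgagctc
The 3 regions differ in base composition, with 71.2% G and C for Fgf4, 44% for Fgfr2 and 53.6% for Fgfbp1. Both strands were searched for 4 motifs: GGGCGG, the TATA box TATAAA, the POU octamer core ATGCAAA and the Tcf/Lef core CTTTGAT. Fgf4 held 2 GC boxes, which do not overlap and whose first bases lie 214 and 188 bases before the start, and the windows of Fgfr2 and Fgfbp1 held a match of none of the 4 motifs. Of 32851 start regions of the same length, 32.7% held the GC box, 12.4% the TATA box, 4.12% the octamer core and 3.21% the Tcf/Lef core. The windows of Fgfr3 and Fgfr4 also held GC boxes, and the Tcf/Lef core was in none of the windows of the 5 genes. A match here is a match of letters and was not tested as a binding site.

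The deposited intensities are given on the log2 scale. Each difference is one between group means, its error is the standard error from the limma fit, and it is called where the adjusted p was under 0.05. Probe sets differ in their brightness for reasons other than RNA level, so levels are compared within a probe set and never between probe sets or genes. The targeted gene, Tcf7l1, was lower on the KO arrays. Its probe set 1436207_at had a mean of 9.10 ± 0.18 in KO and 10.37 ± 0.15 in WT cells with Wnt3a, and 9.47 ± 0.11 in KO and 10.85 ± 0.07 in WT cells in control medium (SD, n = 3 each). It was 2.42-fold lower in KO cells with Wnt3a (adjusted p = 8.04e-06) and 2.60-fold lower in control medium (adjusted p = 1.34e-06), and a second probe set was 3.47-fold and 3.39-fold lower. Neither fell to the 5.56 that served as the lower limit of the filter, and whether they lie in the deleted part is not given.

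Arrays of a group correlated between 0.995 and 0.998 over all probe sets. Summed linear intensities of 10 embryonic stem cell markers were 105427 to 112448 in KO and 93122 to 101321 in WT cells with Wnt3a, and 100884 to 103367 in KO and 76455 to 81292 in WT cells in control medium, and no marker lay below the lower limit in any group. Of 10 primitive endoderm markers, the sum was 3856 to 4676 in KO and 2906 to 3984 in WT cells with Wnt3a, and 1904 to 2717 in WT cells in control medium. In KO cells in control medium it was 1387 and 2456 on replicates 1 and 3 and 6542 on replicate 2, which stands apart. Fibroblast markers summed to 557 to 594 in KO and 614 to 641 in WT cells with Wnt3a, without overlap. In control medium they summed to 624 to 665 in KO and 651 to 761 in WT cells. Of 7 tested, 2 were called higher and 3 lower in KO cells in control medium (71.4%, against 40.5% of all genes). With Wnt3a 1 was called higher and 2 lower (42.9%, against 26.3%). The collagen gene Col3a1 and Lum lay below the lower limit in every group. The part of these markers in the results was not tested. The spread between the 3′ and 5′ probe sets of the actin control is a sign of RNA integrity. It averaged 0.38 in KO and 0.26 in WT cells with Wnt3a and 0.35 in KO and 0.21 in WT cells in control medium. Genotypes did not overlap for actin in either medium. The same spread of the Gapdh control was -0.080 to -0.036 in KO and -0.099 to -0.077 in WT cells with Wnt3a. In control medium it was -0.008 to 0.041 in KO and -0.010 to 0.037 in WT cells. For Gapdh the genotypes overlapped in both media, and the media did not overlap in either genotype. The mean over the 18S ribosomal RNA probe sets was 9.51 to 10.27 in KO and 10.43 to 10.85 in WT cells with Wnt3a, and 9.03 to 9.36 in KO and 8.51 to 9.08 in WT cells in control medium. It was higher with Wnt3a in both genotypes without overlap, and with Wnt3a it was lower in KO than in WT cells without overlap. In bulk RNA, fewer cells of a type and less RNA per cell cannot be told apart.

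**Figure D1:**
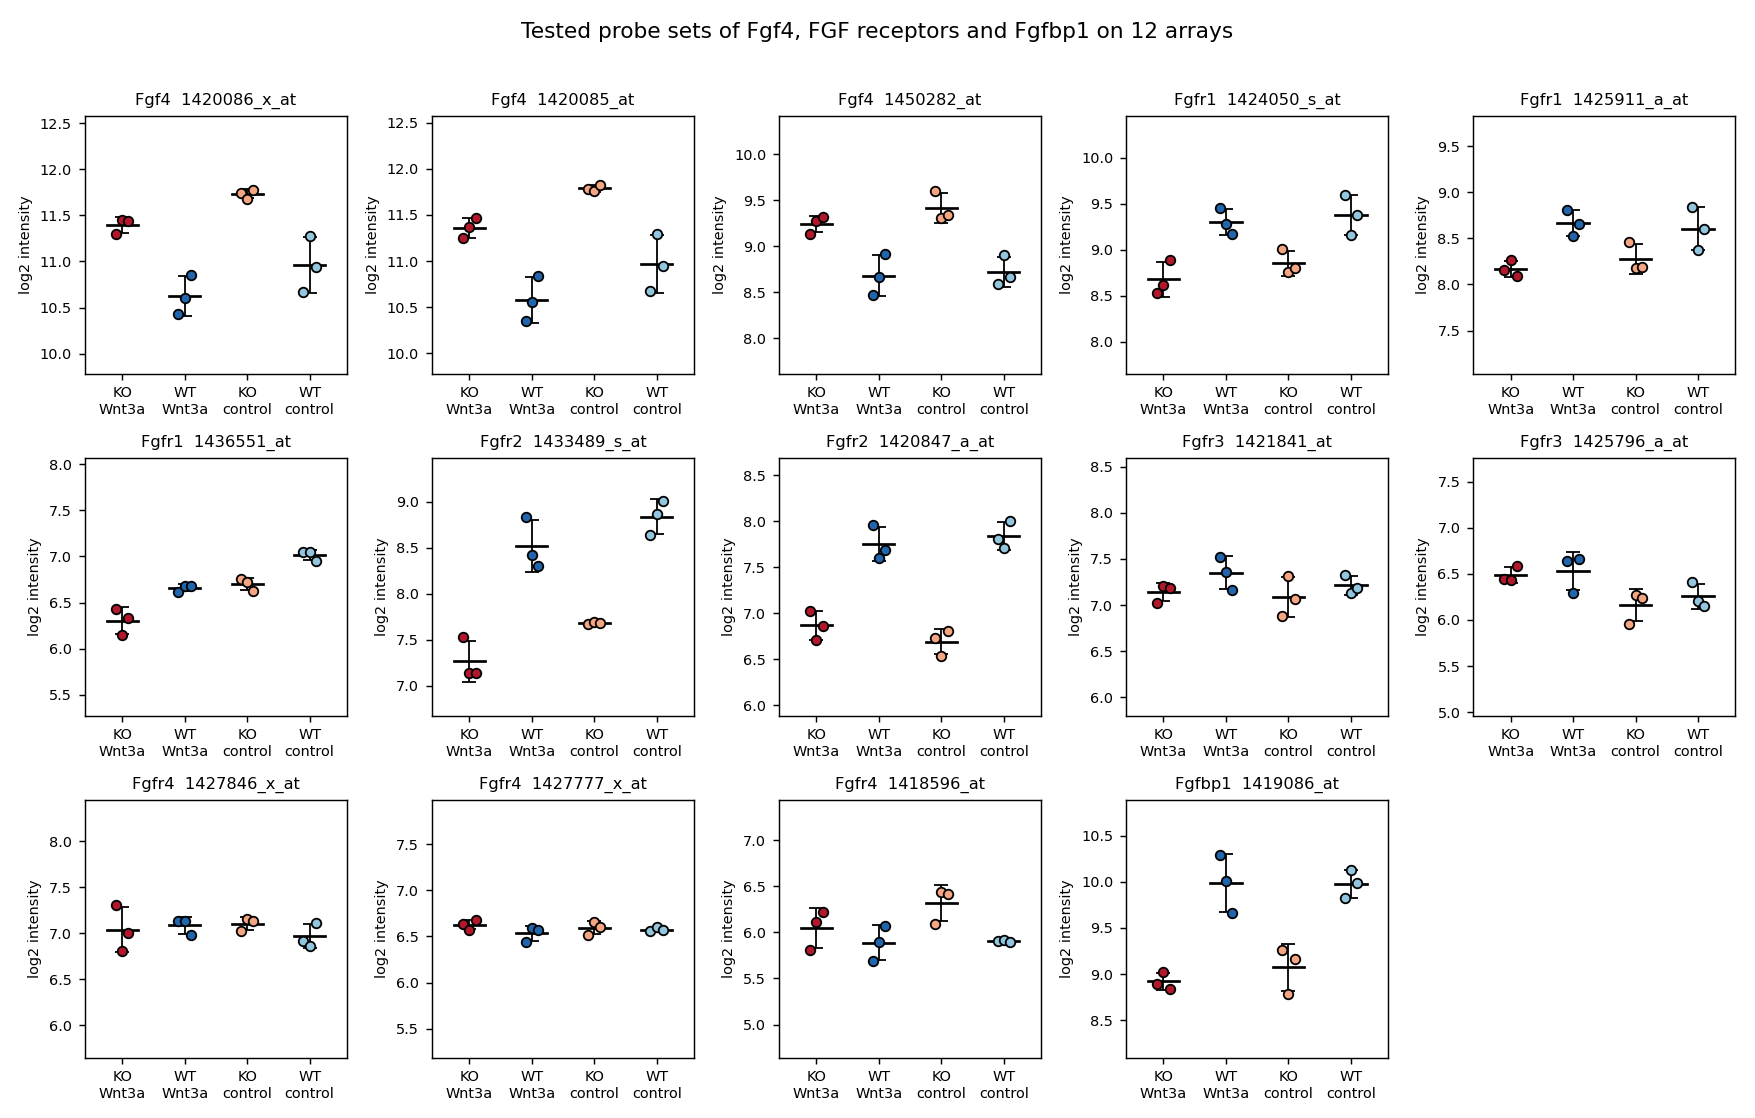
Log2 intensity (vertical axis) of each of the 14 tested probe sets on the 12 arrays, with the 4 groups along the horizontal axis; points are arrays, the long line is the mean and the bar 1 SD (n = 3), and every panel spans the same number of log2 units. Fgf4 sits higher in KO cells in both media, while Fgfr1, Fgfr2 and Fgfbp1 sit lower there. For Fgfr3 and most Fgfr4 probe sets the KO and WT arrays of the same medium overlap.

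Fgf4, the ligand, lies on chromosome 7. With its brightest probe set, 1420086_x_at, KO cells with Wnt3a read 11.30, 11.45 and 11.44, against 10.42, 10.61 and 10.86 in WT cells with Wnt3a. In control medium KO cells read 11.75, 11.68 and 11.78, against 10.67, 11.27 and 10.94 in WT cells. Every KO array was above every WT array of the same medium, and the 3 KO arrays in control medium, with an SD of 0.051, lay closer together than the 3 WT arrays, with an SD of 0.30. Fgf4 was 1.71-fold higher in KO cells in control medium (log2 difference 0.77 ± 0.14, adjusted p = 0.000824) and 1.70-fold higher with Wnt3a (0.77 ± 0.14, adjusted p = 0.0019).

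The second Fgf4 probe set, 1420085_at, is annotated to the same transcript record as the first and is not independent of it. Its means were 11.36 in KO and 10.58 in WT cells with Wnt3a, and 11.79 in KO and 10.97 in WT cells in control medium, differences of 0.78 (adjusted p = 0.00256) and 0.82 (adjusted p = 0.000901). The third, 1450282_at, is annotated to another record and read 9.14, 9.27 and 9.31 in KO and 8.47, 8.67 and 8.91 in WT cells with Wnt3a. In control medium it read 9.60, 9.31 and 9.34 in KO and 8.59, 8.91 and 8.67 in WT cells. Here too the genotypes did not overlap in either medium, and the KO cells were 1.47-fold higher with Wnt3a (adjusted p = 0.00609) and 1.62-fold higher in control medium (adjusted p = 0.000781). The fourth, 1449729_at, stayed between 4.29 and 4.77 on all arrays, below the lower limit, and was not tested.

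The order of the Fgf4 levels was KO control, KO Wnt3a, WT control and WT Wnt3a with each of the 3 tested probe sets. With the brightest probe set the difference between Wnt3a and control medium was -0.34 in KO cells (adjusted p = 0.0827) and -0.33 in WT cells (adjusted p = 0.0714), and neither passed the threshold. The middle neighbours, KO Wnt3a and WT control, were not compared by a test. The summed stem cell markers were also higher in KO cells, without overlap in either medium. Of the 10 markers 8 were called higher and 1 lower in control medium (90%, against 40.5% of all genes). With Wnt3a 4 were called higher and 1 lower (50%, against 26.3%). The part of these markers in the Fgf4 result was not tested.

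Fgfr1, on chromosome 8, encodes the receptor that is most widely expressed in the pluripotent cells of the embryo. With the brightest probe set, 1424050_s_at, KO cells with Wnt3a read 8.53, 8.62 and 8.89, against 9.46, 9.28 and 9.17 in WT cells with Wnt3a. In control medium KO cells read 9.01, 8.75 and 8.80, against 9.60, 9.17 and 9.38 in WT cells. The genotypes did not overlap in either medium, and the order of the means was WT control, WT Wnt3a, KO control and KO Wnt3a. Fgfr1 was 1.54-fold lower in KO cells with Wnt3a (-0.62 ± 0.13, adjusted p = 0.00404) and 1.44-fold lower in control medium (-0.53 ± 0.13, adjusted p = 0.00592).

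The second Fgfr1 probe set, 1425911_a_at, averaged 8.17 in KO and 8.67 in WT cells with Wnt3a, a difference of -0.50 (adjusted p = 0.0109). In control medium it averaged 8.28 in KO and 8.61 in WT cells, the arrays overlapped, and the difference of -0.33 missed the threshold (adjusted p = 0.0511). That value moved across the threshold when single arrays were left out, with an adjusted p of 0.0133 without WT control replicate 2, 0.026 without KO control replicate 1 and 0.047 without WT Wnt3a replicate 1. The third, 1436551_at, read 6.43, 6.14 and 6.33 in KO and 6.62, 6.68 and 6.68 in WT cells with Wnt3a, and 6.75, 6.72 and 6.63 in KO and 7.05, 7.05 and 6.96 in WT cells in control medium. It is the Fgfr1 probe set with the lowest values, and its KO arrays lay below the WT arrays in both media, 1.28-fold with Wnt3a (adjusted p = 0.00553) and 1.25-fold in control medium (adjusted p = 0.00625).

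Fgfr2, on chromosome 7, encodes the receptor that in the blastocyst is found in trophectoderm and in the cells that become primitive endoderm. By the brightest probe sets it had the largest genotype difference among the 6 genes in both media. With its brightest probe set, 1433489_s_at, KO cells with Wnt3a read 7.53, 7.14 and 7.14, against 8.83, 8.42 and 8.30 in WT cells with Wnt3a. In control medium KO cells read 7.67, 7.69 and 7.68, against 8.63, 8.87 and 9.004 in WT cells. No KO array reached a WT array of either medium, and the order of the means was as for Fgfr1. Fgfr2 was 2.38-fold lower in KO cells with Wnt3a (-1.25 ± 0.14, adjusted p = 1e-04) and 2.23-fold lower in control medium (-1.16 ± 0.14, adjusted p = 5.81e-05).

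The second tested Fgfr2 probe set, 1420847_a_at, read 7.03, 6.71 and 6.86 in KO and 7.96, 7.61 and 7.68 in WT cells with Wnt3a, and 6.73, 6.54 and 6.81 in KO and 7.80, 7.71 and 8.002 in WT cells in control medium. Again no KO array reached a WT array. KO cells were 1.84-fold lower with Wnt3a (adjusted p = 0.000255) and 2.22-fold lower in control medium (adjusted p = 1.29e-05). The remaining one, 1443211_at, stayed between 4.76 and 5.17 and was not tested. Trophectoderm markers, the cell type in which Fgfr2 is best known, summed to 1144 to 1403 in KO and 1572 to 1693 in WT cells with Wnt3a, and to 1242 to 1306 in KO and 1874 to 2366 in WT cells in control medium. The defining marker Elf5 lay below the lower limit in every group, Gata3 did so in KO and not in WT cells, and Cdx2 averaged 6.53 in KO and 7.50 in WT cells with Wnt3a and 6.73 in KO and 7.74 in WT cells in control medium. Krt7 averaged 5.99 in KO and 8.76 in WT cells with Wnt3a and 6.06 in KO and 9.36 in WT cells in control medium. A sum of linear intensities gives most weight to bright genes, and Krt7 was the brightest of the 10 markers in WT cells. Of 9 tested trophectoderm markers 1 was called higher and 3 lower in KO cells with Wnt3a (44.4%, against 26.3% of all genes). In control medium 0 were called higher and 3 lower (33.3%, against 40.5%). The one called higher was Eomes, which averaged 8.43 in KO and 7.75 in WT cells with Wnt3a (0.68, adjusted p = 0.0347) and 8.12 in KO and 7.73 in WT cells in control medium (0.40, adjusted p = 0.172). The median difference of the 9 tested markers was -0.004 with Wnt3a and -0.32 in control medium, so with Wnt3a the lower sum did not hold for the markers as a set. The part of these markers in the Fgfr2 result was not tested.

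Fgfr3, on chromosome 5, showed no called genotype difference. Its brightest probe set, 1421841_at, averaged 7.14 in KO and 7.35 in WT cells with Wnt3a (-0.21, adjusted p = 0.225), and 7.09 in KO and 7.22 in WT cells in control medium (-0.13, adjusted p = 0.446). The 95% interval of the difference ran between -0.46 and 0.05 with Wnt3a and between -0.38 and 0.13 in control medium, so a fall of the size seen in Fgfr2 lies outside it and a fall of the size of the smallest Fgfr1 difference does not. The second probe set, 1425796_a_at, read 6.45, 6.44 and 6.59 in KO and 6.64, 6.29 and 6.66 in WT cells with Wnt3a, and 5.96, 6.28 and 6.24 in KO and 6.41, 6.21 and 6.15 in WT cells in control medium. The genotypes overlapped in both media, with differences of -0.04 (adjusted p = 0.838) and -0.10 (adjusted p = 0.563).

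Fgfr4, on chromosome 13, gave no common answer over its probe sets. The brighter ones, 1427846_x_at and 1427777_x_at, stayed between 6.44 and 7.31 on all arrays and differed by 0.14 (adjusted p = 0.394) and 0.02 (adjusted p = 0.855) between KO and WT cells in control medium. Another, 1418596_at, read 6.09, 6.44 and 6.42 in KO and 5.91, 5.91 and 5.90 in WT cells in control medium, and was called 1.33-fold higher in KO cells there (0.41 ± 0.13, adjusted p = 0.0225). With Wnt3a it read 5.81, 6.12 and 6.22 in KO and 5.69, 5.90 and 6.07 in WT cells, and was not called (0.16, adjusted p = 0.399). The control-medium call was lost without WT control replicate 1 (adjusted p = 0.0558), WT control replicate 3 (0.0605), KO control replicate 2 (0.0849) or KO control replicate 3 (0.0825). KO control replicate 2 is the array with the high primitive endoderm sum. In all, 3 of the 10 primitive endoderm markers were called higher in KO cells in control medium (30%, against 40.5% of all genes called). With Wnt3a 0 were (0%, against 26.3%). The median difference of these markers was 0.70 in control medium and 0.40 with Wnt3a, and their part in the Fgfr4 call was not tested. The other Fgfr4 probe sets, 1427845_at and 1427776_a_at, stayed between 3.98 and 4.88 and were not tested, and each shares its annotated transcript record with one of the brighter ones.

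Fgfbp1, the FGF carrier, lies on chromosome 5 and had 1 probe set, 1419086_at. KO cells with Wnt3a read 8.89, 9.02 and 8.84, against 10.30, 10.01 and 9.67 in WT cells with Wnt3a. In control medium KO cells read 9.26, 8.79 and 9.17, against 9.83, 10.13 and 9.98 in WT cells. No KO array reached the level of a WT array, in the same medium or the other. Fgfbp1 was 2.10-fold lower in KO cells with Wnt3a (-1.07 ± 0.16, adjusted p = 0.000473) and 1.88-fold lower in control medium (-0.91 ± 0.16, adjusted p = 0.000623).

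Over both directions 9 of the 14 tested probe sets were called between KO and WT cells in control medium, where 36.2% of all tested probe sets were called, and 9 with Wnt3a, where 24% were. The arrays of the genotypes did not overlap for 4 higher and 5 lower members in control medium, and over all tested probe sets 25.5% were higher and 24.1% lower without overlap. With Wnt3a 3 higher and 6 lower members did not overlap, against 18% and 21% of all. Taking the brightest probe set of each gene, Fgf4 was called higher and Fgfr1, Fgfr2 and Fgfbp1 lower in each medium, with 40.5% of 13811 genes called in control medium and 26.3% with Wnt3a. A called difference was therefore common on these arrays. The median difference of the 14 probe sets was -0.11 in control medium and -0.13 with Wnt3a, against 0.03 and 0.00 over all tested probe sets. The actin 3′ and 5′ difference also moved with genotype, as did the 18S reading with Wnt3a. That of Gapdh overlapped between the genotypes in both media. The part of these readings in the results was not tested.

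**Figure D2:**
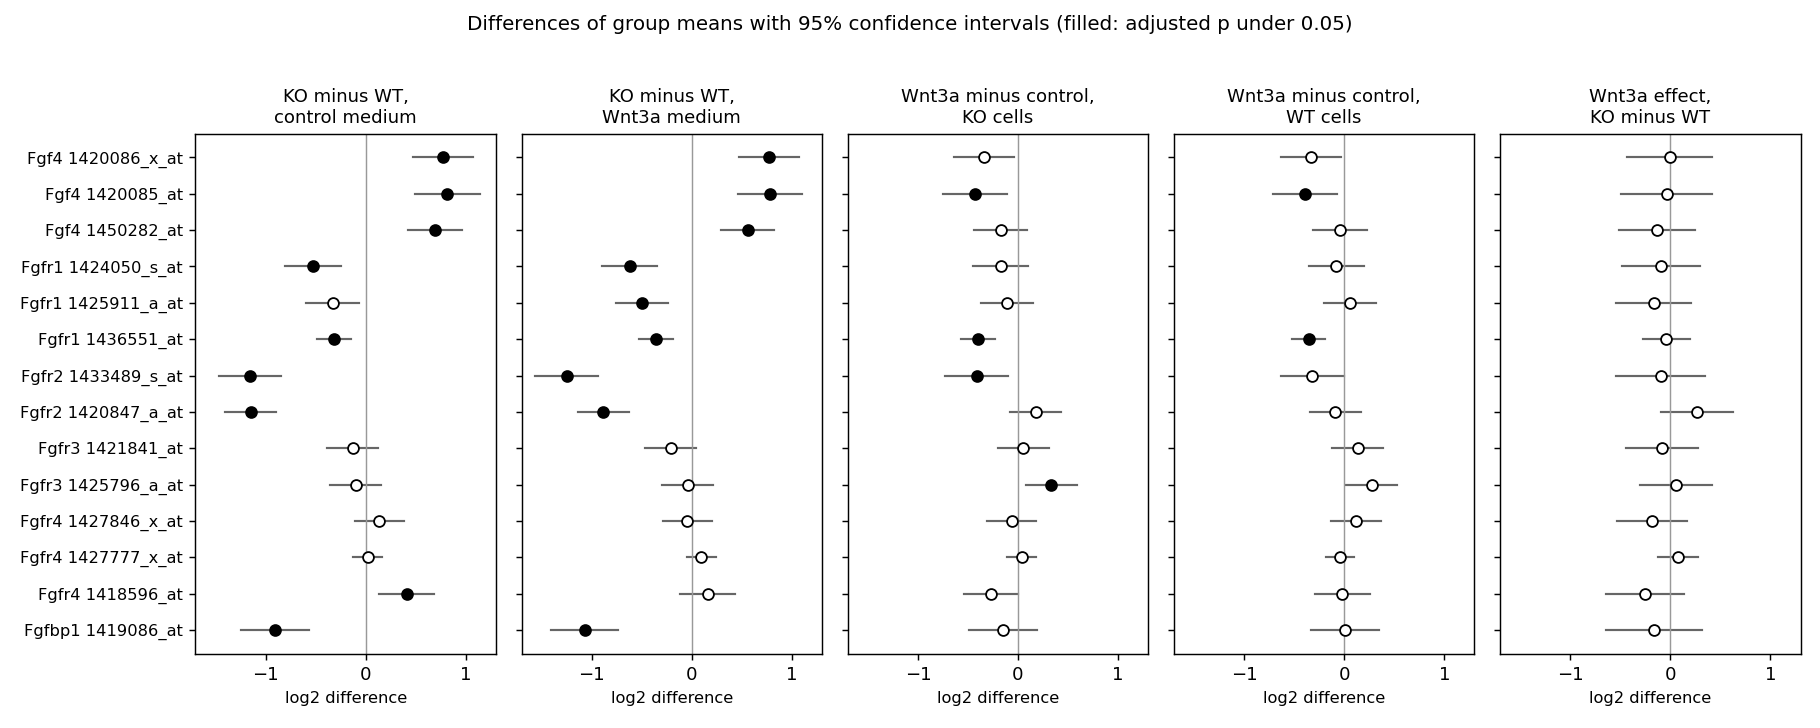
Difference of group means (log2, horizontal axis) with its 95% confidence interval for the 14 tested probe sets (rows) in 5 comparisons (panels); filled points have an adjusted p under 0.05. Fgf4 lies right of 0 and Fgfr1, Fgfr2 and Fgfbp1 left of 0 in both comparisons of KO with WT cells, the Wnt3a effects of Fgf4, Fgfr2, Fgfbp1 and the 2 brighter Fgfr1 probe sets lie nearer 0, and no point in the last panel is filled.

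The Wnt3a comparisons asked whether 24 h of the ligand moved the same genes. In KO cells 1 member probe set was called higher with Wnt3a (14.9% of all probe sets were) and 3 lower (16%), 30.9% of all being called in either direction. In WT cells 0 were called higher (20.8% of all) and 2 lower (21.7%), 42.5% of all being called. The arrays of the media did not overlap for 1 higher and 4 lower members in KO cells, against 21.6% and 23.4% of all, and for 0 higher and 1 lower member in WT cells, against 26.4% and 27.3%. Only the Fgfr1 probe set 1436551_at was called in both genotypes in every alternative that tested it, including each array left out. It was 1.32-fold lower with Wnt3a in KO cells (-0.40, adjusted p = 0.00266) and 1.28-fold lower in WT cells (-0.36, adjusted p = 0.00306), and its Wnt3a arrays, listed above, lay below the control arrays of the same genotype. The other 2 Fgfr1 probe sets did not share this: 1424050_s_at differed by -0.17 in KO (adjusted p = 0.327) and -0.08 in WT cells (adjusted p = 0.65), and 1425911_a_at by -0.11 (adjusted p = 0.53) and 0.06 (adjusted p = 0.723).

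The Fgf4 probe set 1420085_at was called lower with Wnt3a in KO cells, at 11.25, 11.37 and 11.46 with Wnt3a against 11.78, 11.76 and 11.83 in control medium (-0.43, adjusted p = 0.0444), and in WT cells, at 10.35, 10.55 and 10.84 with Wnt3a against 10.67, 11.30 and 10.95 in control medium (-0.39, adjusted p = 0.0485). The arrays of the 2 media overlapped in WT cells and not in KO cells. The third Fgf4 probe set, 1450282_at, differed by -0.17 in KO (adjusted p = 0.309) and -0.04 in WT cells (adjusted p = 0.814). The KO call was lost without WT control replicate 3 (adjusted p = 0.0606), WT Wnt3a replicate 2 (0.058), KO control replicates 1, 2 or 3 (0.091, 0.0814 and 0.118) or KO Wnt3a replicates 1, 2 or 3 (0.115, 0.0944 and 0.0571). The WT call was lost without WT control replicates 2 or 3 (0.194 and 0.0941), WT Wnt3a replicates 1 or 2 (0.174 and 0.108), KO control replicates 1, 2 or 3 (0.0622, 0.0616 and 0.0627) or KO Wnt3a replicates 1, 2 or 3 (0.0509, 0.0622 and 0.0536). For the brightest Fgf4 probe set, 1420086_x_at, a call appeared in KO cells without WT control replicates 1 or 2 (0.0436 and 0.0375) and in WT cells without WT control replicate 1 (0.0141) or WT Wnt3a replicate 3 (0.0295).

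Among the other receptors, the brightest Fgfr2 probe set was lower with Wnt3a in KO cells (-0.41 ± 0.14, adjusted p = 0.0463), while 1420847_a_at differed the other way and was not called (0.18, adjusted p = 0.279). In WT cells the 2 differed by -0.32 (adjusted p = 0.0937) and -0.09 (adjusted p = 0.568). The Fgfr2 call in KO cells was lost without WT control replicates 2 or 3 (0.0583 and 0.0511), WT Wnt3a replicate 2 (0.0566), KO control replicates 1, 2 or 3 (0.0928, 0.0989 and 0.107) or KO Wnt3a replicates 2 or 3 (0.147 and 0.136), and the WT difference was called without WT Wnt3a replicate 1 (0.0131).

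The Fgfr3 probe set 1425796_a_at was higher with Wnt3a in KO cells (0.33 ± 0.12, adjusted p = 0.0475), and differed by 0.27 in WT cells (adjusted p = 0.0756). The KO call was lost without WT control replicates 2 or 3 (0.058 and 0.0578), KO control replicates 1 or 3 (0.176 and 0.0712) or KO Wnt3a replicates 1, 2 or 3 (0.0673, 0.0788 and 0.137), and the WT difference was called without WT control replicate 1 (0.0485) or WT Wnt3a replicate 2 (0.0178). None of the 3 tested Fgfr4 probe sets was called in either genotype, although 1418596_at was called in KO cells without KO control replicate 1 (0.0483). Fgfbp1 differed by -0.15 in KO (adjusted p = 0.493) and 0.01 in WT cells (adjusted p = 0.962), with a 95% interval of -0.49 to 0.19 in KO and -0.33 to 0.35 in WT cells. The dap transcript, which is added during sample preparation, averaged 11.46 on the Wnt3a arrays and 3.94 on the control arrays. The 18S reading was also higher, and the Gapdh 3′ and 5′ difference lower, on the Wnt3a arrays. The effect of Wnt3a and that of preparation therefore cannot be told apart for any of these genes.

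The interaction, the Wnt3a effect in KO minus that in WT cells, was called for 0 of the 14 probe sets by limma, where 3.58% of all probe sets were called, and 0 had an unadjusted p under 0.05. The largest was that of Fgfr2 1420847_a_at at 0.27 (95% interval -0.10 to 0.63, unadjusted p = 0.135, adjusted p = 0.404). For Fgf4 1420086_x_at it was -0.01 (-0.43 to 0.42), for Fgfbp1 -0.16 (-0.64 to 0.32) and for Fgfr1 1424050_s_at -0.10 (-0.49 to 0.29). These intervals leave room for differences of the size of the Wnt3a effects themselves.

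The rest of the FGF pathway was followed with 4 lists, by the brightest probe set of each gene. Of 93 symbols 85 were found on the array and 73 passed the filter. In KO cells 11 of the 73 were called higher and 29 lower in control medium (54.8% called, against 40.5% of all genes), and 6 were called higher and 24 lower with Wnt3a (41.1% called, against 26.3%). The median difference was -0.16 in each medium. Without KO control replicate 2, the array with the high primitive endoderm sum, 10 were higher and 25 lower in control medium.

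Of the 11 other FGF ligands tested, 2 were higher and 2 lower in KO cells in control medium, and 1 was higher and 3 lower with Wnt3a. That is 36.4% called in each medium, against 40.5% of all genes in control medium and 26.3% with Wnt3a. Fgf13, which encodes an intracellular FGF homologue that does not act through FGF receptors, averaged 7.27 in KO and 8.44 in WT cells with Wnt3a (-1.17, adjusted p = 0.00228), and 7.73 in KO and 9.67 in WT cells in control medium (-1.94, adjusted p = 2.52e-05). Fgf18 averaged 5.90 in KO and 6.81 in WT cells in control medium (-0.91, adjusted p = 0.00178), and with Wnt3a its KO mean of 5.43 was below the lower limit, against 6.44 in WT cells. The ligands called higher were chosen after their values were seen: Fgf1 in control medium (0.36, adjusted p = 0.0225; -0.17 with Wnt3a, adjusted p = 0.285) and Fgf9 in both media (0.20 with Wnt3a, adjusted p = 0.0464, and 0.19 in control medium, adjusted p = 0.0479). Fgf17, also chosen so, was lower in KO cells with Wnt3a (-0.53, adjusted p = 0.00296) and not called in control medium (0.15, adjusted p = 0.298). The Fgf4 difference, 0.77 in each medium, was larger than those of Fgf1 and Fgf9, the ligands called higher, and smaller in size than those of Fgf13 and Fgf18. The difference between genes was not tested.

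Co-receptors, the decoy receptor Fgfrl1 and genes of heparan sulfate made up 23 tested genes, of which 2 were higher and 11 lower in KO cells in control medium, and 2 higher and 7 lower with Wnt3a (56.5% called in control medium and 39.1% with Wnt3a). The median difference was -0.20 in control medium and -0.05 with Wnt3a. Hs6st2, which encodes an enzyme that adds 6-O-sulfate to heparan sulfate, had the largest change, with means of 5.92 in KO and 8.44 in WT cells with Wnt3a and 6.83 in KO and 9.31 in WT cells in control medium. That is 5.73-fold lower with Wnt3a (adjusted p = 7.65e-06) and 5.55-fold lower in control medium (adjusted p = 2.45e-06). Sulf1, which encodes a sulfatase that removes 6-O-sulfate at the cell surface, was 1.76-fold lower in KO cells with Wnt3a (adjusted p = 0.00144) and 1.94-fold lower in control medium (adjusted p = 0.000197). The 2 genes called higher in each medium were Klb, a co-receptor of endocrine FGFs, and Glce, an enzyme of heparan sulfate synthesis. Klb differed by 0.73 with Wnt3a (adjusted p = 0.0386) and 1.17 in control medium (adjusted p = 0.0018). Glce, chosen after its values were seen, differed by 0.51 with Wnt3a (adjusted p = 0.00136) and 0.47 in control medium (adjusted p = 0.000988).

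Of 19 adaptors and transducers, 4 were higher and 5 lower in KO cells in control medium, and 0 higher and 4 lower with Wnt3a. With 47.4% called in control medium and 21.1% with Wnt3a, the list was near the 40.5% and 26.3% of all genes. Sos2, a Ras exchange factor that acts below the receptor, averaged 6.21 in KO and 7.23 in WT cells with Wnt3a (-1.02, adjusted p = 0.000155), and 5.95 in KO and 7.58 in WT cells in control medium (-1.63, adjusted p = 1.56e-06). Akt1, a kinase below PI3-kinase, was lower by 0.62 on the log2 scale with Wnt3a (-0.62, adjusted p = 0.000196) and by more in control medium (-1.18, adjusted p = 5.97e-07). The 4 called higher in control medium, chosen after their values were seen, were the docking protein gene Frs3 (0.37), the adaptor gene Grb2 (0.37), Plcg1 (0.26) and Stat3 (0.43), each with an adjusted p between 0.0111 and 0.00209. None of these 4 was called with Wnt3a.

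The 20 feedback inhibitors and targets of the pathway held 3 genes higher and 11 lower in KO cells in control medium, and 3 higher and 10 lower with Wnt3a (70% called in control medium and 65% with Wnt3a). The median difference was -0.38 in control medium and -0.39 with Wnt3a. Dusp4, which encodes a nuclear phosphatase of ERK, averaged 7.38 in KO and 8.98 in WT cells with Wnt3a (3.04-fold lower, adjusted p = 3e-05), and 7.11 in KO and 9.61 in WT cells in control medium (5.64-fold lower, adjusted p = 3.91e-07). Dusp5, another nuclear ERK phosphatase, was 2.62-fold lower in KO cells with Wnt3a (adjusted p = 1.39e-05) and 2.74-fold lower in control medium (adjusted p = 2.77e-06). Phlda1 was 2.29-fold lower with Wnt3a (adjusted p = 0.000178) and 3.11-fold lower in control medium (adjusted p = 5.61e-06). The 3 genes called higher were the same in both media and were named after their values were seen. They were the immediate early gene Egr1 (10.92 in KO and 9.95 in WT cells with Wnt3a, 11.48 in KO and 10.03 in WT cells in control medium), the Ets factor gene Etv4 (10.87 in KO and 10.16 in WT cells with Wnt3a, 10.79 in KO and 9.70 in WT cells in control medium) and the Sprouty gene Spry4 (10.32 in KO and 9.77 in WT cells with Wnt3a, 10.58 in KO and 9.47 in WT cells in control medium). Their adjusted p ranged between 0.00418 and 0.000167 with Wnt3a and between 2.05e-05 and 2.75e-06 in control medium. Genes of this list were thus called in both directions in the same cells.

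**Figure D3:**
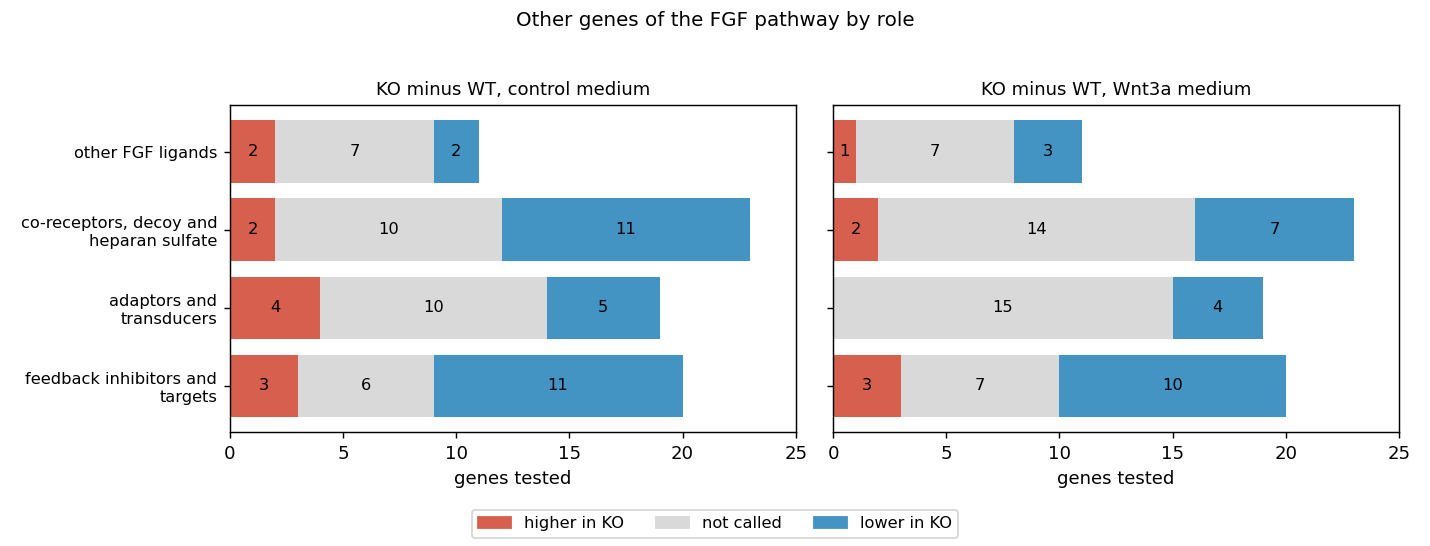
Number of tested genes (horizontal axis) called higher in KO cells, not called, or called lower in KO cells, for 4 lists of FGF pathway genes (rows), in control medium (left) and with Wnt3a (right). More genes lie on the lower side than on the higher side in the list of co-receptors, decoy and heparan sulfate genes (11 against 2 in control medium). The same holds for the feedback list (11 against 3). In control medium 56.5% and 70% of these lists were called, against 40.5% of all genes.

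**Figure D4:**
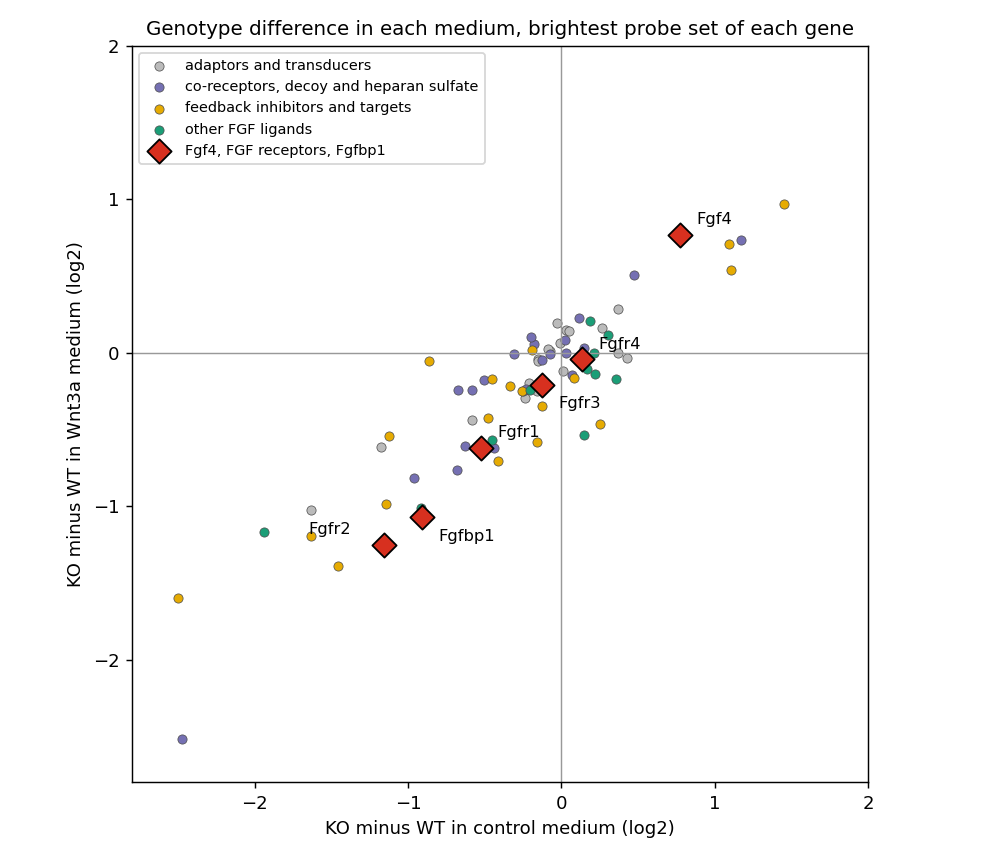
Difference between KO and WT cells (log2) in control medium on the horizontal axis and with Wnt3a on the vertical axis, for the brightest probe set of each tested gene; diamonds are Fgf4, the 4 receptors and Fgfbp1, and circles are the genes of the 4 lists. Fgf4 lies in the upper right at 0.77 on both axes, Fgfr1, Fgfr2 and Fgfbp1 lie in the lower left, and Fgfr3 and Fgfr4 lie near the centre.

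In the Wnt3a comparisons 6 of the 73 list genes were called higher and 15 lower in KO cells (28.8%, against 28.2% of all genes; 2 higher without KO Wnt3a replicate 2), and 12 higher and 21 lower in WT cells (45.2%, against 41.1%). Fgfrl1, the receptor without a kinase domain, was lower with Wnt3a in both genotypes, by 0.53 in KO (-0.53, adjusted p = 0.00211) and 0.96 in WT cells (-0.96, adjusted p = 1.86e-05). Fgf15, a neighbour of Fgf4 on chromosome 7, was also lower with Wnt3a in both, at 7.48 with Wnt3a against 8.53 in control medium in KO cells (adjusted p = 0.00412) and 7.48 against 8.31 in WT cells (adjusted p = 0.00933). Hs6st2 was lower with Wnt3a in both genotypes as well (-0.91 in KO, adjusted p = 0.00547, and -0.87 in WT cells, adjusted p = 0.00474). The scaffold gene Gab1 was higher in both (0.27 in KO, adjusted p = 0.0131, and 0.40 in WT cells, adjusted p = 0.000825). Dusp6, a cytoplasmic ERK phosphatase, was lower with Wnt3a in both genotypes, 1.51-fold in KO (adjusted p = 0.000847) and 1.68-fold in WT cells (adjusted p = 7.9e-05).

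The interaction was called for 5 of the 73 list genes, against 3.65% of all genes. They were Akt1 (0.56, adjusted p = 0.0228), Dusp4 (0.89, adjusted p = 0.0466), Spred3 (0.81, adjusted p = 0.0462), Fgf17 (-0.68, adjusted p = 0.0284) and, chosen after its values were seen, the Ets factor gene Etv5 (-0.72, adjusted p = 0.0226). These counts, 3 higher and 2 lower, moved with single arrays. Without WT control replicate 1 or 3 there were 0 in either direction, without KO control replicate 1 or 3 or WT Wnt3a replicate 2 or 3 there were 0 higher and 1 lower, and without KO Wnt3a replicate 2 there was 1 higher and 0 lower. Without KO control replicate 2 there was 1 higher and 2 lower, without WT Wnt3a replicate 1 there were 4 in each direction, and without KO Wnt3a replicate 3 there were 2 higher and 1 lower. With no filter there was 1 higher and 2 lower, and with the trend and robust variance prior there were 3 higher and 4 lower.

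The genes whose pattern over the 12 arrays was most like that of each member were taken by the root mean square difference of values centred on each gene's mean, over 13046 candidate genes. For Fgf4 they were Acap1 (0.117), Polr3gl (0.12) and Capsl (0.129), against a median of 0.475 over all candidates. Fgfr1 was most like Rap2b (0.0864), Phlpp1 (0.0993) and Gpc4 (0.103), with a median of 0.372. Gpc4 encodes a glypican, a heparan sulfate carrier at the cell surface, and belongs to the co-receptor list. Fgfr2 was most like Sfrp2 (0.136), which encodes a secreted Wnt antagonist, Selenoi (0.159) and the targeted gene Tcf7l1 itself (0.16), with a median of 0.668. Sfrp2 averaged 7.62 in KO and 8.82 in WT cells with Wnt3a and 7.93 in KO and 9.31 in WT cells in control medium, the same order of groups as the brightest Fgfr2 probe set. For Fgfbp1 the genes were Rnf227 (0.142), Ptbp2 (0.146) and Ift122 (0.157), with a median of 0.554. Fgfr3 and Fgfr4 varied little over the arrays, and the genes nearest to them were Mchr1 (0.0692), Mroh1 (0.0844) and Ramp2 (0.0866) for Fgfr3 and Zkscan16 (0.0711), Endou (0.0842) and Iqcf3 (0.0862) for Fgfr4, with medians of 0.249 and 0.227. These values describe 12 arrays that share their 4 groups.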

How the data were processed

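RNA of mouse embryonic stem cells, 2 genotypes in 2 media with 3 arrays each, was hybridised to Affymetrix arrays. The table the authors deposited holds linear intensities, whose minimum ran from 9.26 to 9.97 and maximum from 33950 to 35984 over the arrays. Per the submitters' processing notes RMA was used; its version and settings are not given here. GEO's platform annotation gave the gene names: 34945 probe sets had 1 symbol, 932 several, 9160 were not listed and 64 were array controls.

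Log2 of the intensity was taken with no pseudocount. A probe set that is no array control was kept if at least 3 of 12 arrays exceeded the 40th percentile of all such values, 5.56 on the log2 scale (intensity 47.2), which left 28483; this level is the lower limit named in the text. A model of the 4 group means over all 12 arrays was fitted (limma 3.58.1, R 4.3.3, lmFit then eBayes, two-sided), and p-values were adjusted by Benjamini-Hochberg over all 28483, with a threshold of 0.05. The fit was tested on simulated data. With no counts or detection calls, the number of arrays limits the precision.

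Same-numbered replicates did not deviate together: 3 of 18 pairs correlated above 0.1 (-0.25 to 0.24), so no block was used. The members, the lists and the rule for named genes (per list and comparison the 2 called genes with the largest change, and per member the 3 genes most like it) were chosen with earlier results of these data known. A list gene outside that rule is said to be chosen after its values were seen. Alternatives were the replicate block, each array left out, only the arrays compared, no filter, a stricter filter (6 arrays above the 50th percentile), median centring, repeated quantile normalization, 1 brightest probe set or the mean of all probe sets per gene, another variance prior and log2(intensity + 16). Start regions came from RefSeq on GRCm38.p6.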

Additional observations from a re-analysis of the deposited data

Results flagged for a closer look

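A transcript outside the gene measurements separated the media. The bacterial control transcript dap is added during sample preparation, and its probe sets were averaged on each array. The signal was 11.46 ± 0.11 on the Wnt3a arrays and 3.94 ± 0.08 on the control arrays (SD, n = 6 each), a difference of 7.518 on the log2 scale. A signal thus stood in a control feature on the arrays of one medium only. Within a medium it averaged 11.36 ± 0.06 in KO and 11.55 ± 0.03 in WT cells with Wnt3a, and 3.89 ± 0.04 in KO and 3.99 ± 0.09 in WT cells in control medium (SD, n = 3 each). The comparisons of KO with WT cells for Fgf4, the receptors and Fgfbp1 were made within a medium. The Wnt3a comparisons were made across the dap difference between the media. With Wnt3a dap ran from 11.29 to 11.40 in KO and from 11.52 to 11.58 in WT cells, without overlap. In control medium the genotypes overlapped. The part of the dap difference between genotypes in the results was not tested.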

How the results depend on the processing

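No difference of Fgf4, the receptors or Fgfbp1 changed direction past the threshold in any alternative. Of 1441 values under alternatives, 1369 kept their side of the threshold, 49 lost a call and 23 gained one. The 9 called probe sets of the knockout effect with Wnt3a stayed at 9 in every setting run, and in control medium the count ran between 8 and 10 with 1 array left out. With the replicate block, whose numbers do not pair the arrays, the control-medium count was 10, the count of member genes called by the brightest probe set was 1 for the Wnt3a effect in WT cells (0 without the block) and 0 in KO cells (1 without it). That gene count was also 1 in WT cells under repeated quantile normalization, and in KO cells 2 with only the arrays compared and 0 with no filter, median centring or 1 brightest probe set per gene. The 2 probe sets called for Wnt3a in WT cells were 1 with only the arrays compared or no filter and 4 under quantile normalization, and the 4 in KO cells were 2 under median centring. With 1 array left out, these probe set counts ran between 1 and 4 in WT cells and between 1 and 5 in KO cells, and the gene counts between 0 and 1 and between 0 and 2. With no filter, 23.2% of all probe sets were called for the knockout effect in control medium (36.2% with the filter), 14.4% with Wnt3a (24%) and 1.87% for the interaction (3.58%); p-values are then adjusted over more and dimmer probe sets. The interaction's share ran between 0.85% (without WT control replicate 3) and 5.84% (without WT Wnt3a replicate 1), with 1.28% without WT control replicate 1 or WT Wnt3a replicate 2, 1.23% without KO control replicate 1, 1.43% without KO control replicate 3, 1.44% without WT Wnt3a replicate 3, 1.39% without KO Wnt3a replicate 2 and 2.38% without KO Wnt3a replicate 3. The cause of the other shifts was not tested.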

Other observations

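The genes next to the members were looked at after the values were seen, by the nearest tested genes on both sides. Prom1, which encodes a membrane glycoprotein also known as CD133 and lies beside Fgfbp1, averaged 7.56 in KO and 9.30 in WT cells with Wnt3a (-1.74, adjusted p = 0.000512), and 7.81 in KO and 10.20 in WT cells in control medium (-2.39, adjusted p = 1.83e-05). Fgfbp1 and Prom1 were thus both lower in KO cells, and Fbxl5, the nearest tested gene on the other side of Fgfbp1, and Tapt1, the next beyond Prom1, were called in neither medium. Their differences were 0.10 and -0.04 with Wnt3a and 0.15 and 0.05 in control medium.

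Beside Fgf4, the neighbours that also encode FGFs did not share its genotype difference past the threshold. Fgf3 averaged 6.43 in KO and 6.32 in WT cells with Wnt3a (adjusted p = 0.561), and 6.02 in KO and 5.71 in WT cells in control medium (adjusted p = 0.0795). Fgf15 averaged 7.48 in each genotype with Wnt3a (adjusted p = 0.999), and 8.53 in KO and 8.31 in WT cells in control medium (adjusted p = 0.505). Ano1, beyond Fgf3, was higher in KO cells in control medium (0.42, adjusted p = 0.00466) and not called with Wnt3a (0.16, adjusted p = 0.255). LTO1, beyond Fgf15, was called in neither medium (0.04 with Wnt3a, adjusted p = 0.792, and -0.23 in control medium, adjusted p = 0.0511).

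Near Fgfr2, which was lower in KO cells, 2 neighbours were called in the other direction in 1 medium each. Ate1 was higher in KO cells in control medium (0.30, adjusted p = 0.00848) and not called with Wnt3a (0.22, adjusted p = 0.0572). Nsmce4a was higher in KO cells with Wnt3a (0.20, adjusted p = 0.037) and not called in control medium (0.15, adjusted p = 0.0707). Wdr11 and Plpp4, on the other side of Fgfr2, were called in neither medium.

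Of the neighbours of the other receptors, Letm1, beside Fgfr3, was lower in KO cells in both media (-0.29 with Wnt3a, adjusted p = 0.0237, and -0.25 in control medium, adjusted p = 0.0289), where Fgfr3 itself was not called. Nsd3, 25.9 kb from Fgfr1, was lower in control medium (-0.27, adjusted p = 0.0355) and not called with Wnt3a (-0.25, adjusted p = 0.0671). Letm2 lies nearer, 2.76 kb from Fgfr1, and was called in neither medium (-0.15 with Wnt3a, adjusted p = 0.476, and -0.32 in control medium, adjusted p = 0.0958). Near Fgfr4, Nsd1 was higher (0.43, adjusted p = 0.00316) and Rab24 lower (-0.32, adjusted p = 0.0132) in KO cells in control medium, and neither was called with Wnt3a. Plekha2 and Tacc1 near Fgfr1, Tmem129, Tacc3 and Nsd2 near Fgfr3, and Uimc1 and Zfp346 near Fgfr4 were called in neither medium. Of all genes 40.5% were called in control medium and 26.3% with Wnt3a.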
